A study of Mus musculus with 5 samples.

Results

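ESC-like cells obtained after co-injection of ESCs with somatic cells were compared with ESC-like cells obtained after homologous injection of ESCs alone. ESC-like cells are colony-forming cells that grew out when a teratoma, the tumour that pluripotent cells form under the skin, was dissociated and put back into ESC medium. In both conditions the injected ESCs were B6CBAF1. For the homologous injection the recipient was B6CBAF1 and nothing else was injected. For the co-injection the ESCs were mixed with fetal fibroblasts (MFF) of B6D2F1, and the recipient was B6D2F1. All cells were grown on inactivated ICR fibroblasts in medium with serum and leukemia inhibitory factor (LIF). The labels give 1 LIF dose for all samples, whereas the study's methods give a higher dose for cells out of teratomas than for parental ESCs. The comparison used 3 of the 5 arrays of the study, 1 homologous array and the 2 co-injection arrays, batch 1 and batch 2. Parental ESCs and ESC-like cells from a heterologous injection (B6CBAF1 ESCs alone into B6D2F1), 1 array each, did not enter the difference and are given beside it. The values are log2 expression values, on which a difference of 1 is 2-fold, and they cover 19938 genes.

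Several features of the design bear on every value below. The recipient strain, the added MFF, the teratoma and the cell line differ together between the conditions, so their parts cannot be told apart. The labels do not say whether batch 1 and batch 2 were separate teratomas or cultures. The homologous condition has no replicate, so the differences below carry no p-value, and each difference is the co-injection mean minus the homologous array, with the SD of the 2 batches (n = 2). Both batches were set against the same homologous array, whose own error is not in that SD. The arrays measured whole cultures, in which fewer cells of a type and less RNA per cell cannot be told apart.

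Pluripotent cells are held in the undifferentiated state by a small network of transcription factors, with Oct-4 (Pou5f1), Sox2 and Nanog at its core, and LIF signalling maintains this state in mouse ESCs. Fibroblasts are recognised by the collagens, proteoglycans and crosslinking enzymes with which they build the extracellular matrix. Simple epithelia and the trophectoderm, the outer layer of the blastocyst, are recognised by the paired filament proteins keratin 8 and keratin 18. All of these programmes can be present in a culture that grew out of a teratoma.

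The ESC markers were high in all 3 arrays. Pou5f1 was at 12.29 in the homologous array, 12.40 in batch 1 and 12.36 in batch 2. Nanog was at 12.34, 12.25 and 12.31 in the same order, and Tdgf1 (Cripto), a co-receptor of nodal, was at 12.67, 12.64 and 12.62. The median of all array values was 7.49, so these genes lay far above the middle of the scale. The difference of Sox2 was −0.05 ± 0.08, within the spread of the pair. Of 15 core pluripotency genes none differed more than 2-fold, with a median of 0.02 ± 0.02 (SD of the 2 batch medians).

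Across all genes the 3 arrays were close. Only 85 genes differed more than 2-fold between the co-injection mean and the homologous array. Of these, 15 were higher after co-injection (0.0752% of 19938 genes) and 70 were lower (0.351%). In both batches separately, 11 genes were higher and 59 lower. Between batch 1 and batch 2 themselves, 1 gene differed past that threshold, Mir380, by 1.01. The median difference over all genes was 0.04. It was 0.00 over the 11600 genes whose mean over the 5 arrays was above 7.49 and 0.09 over the 8338 dimmer ones, so small positive values of dim genes follow this shift. Just past the threshold lay Got1l1 (−1.01 ± 0.26) and Fgf18 (1.00 ± 0.16), and just short of it Timp1 (−0.995 ± 0.09) and Stra8 (0.95 ± 0.01).

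**Figure D1:**
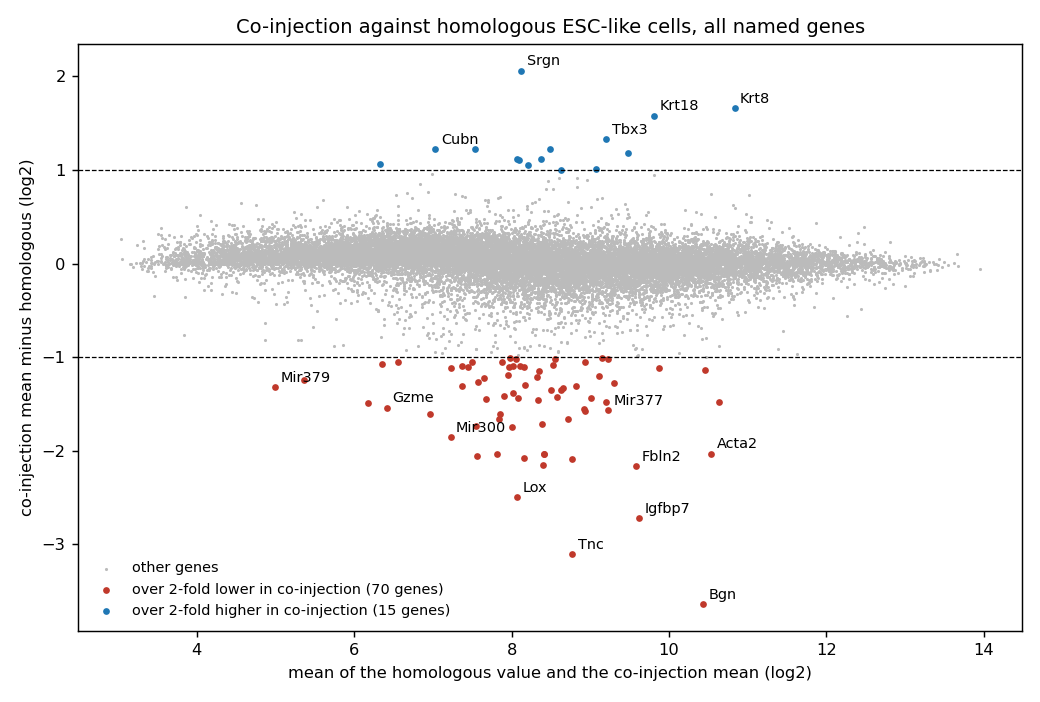
Difference between the co-injection mean and the homologous array (vertical axis, log2) against the mean of both values (horizontal axis, log2) for 19938 genes, each a point, with dashed lines at 2-fold. The 70 lower genes reach −3.64 (Bgn), while the 15 higher genes end at 2.06 (Srgn).

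The genes with the largest negative differences encode proteins that fibroblasts secrete. Bgn, the proteoglycan biglycan, was at 12.26 in the homologous array and at 8.58 and 8.65 in the co-injection arrays. Tnc, the matrix glycoprotein tenascin C, was at 10.32 against 7.17 and 7.27. Igfbp7, a secreted binding protein of insulin-like growth factors, was at 10.98 against 8.25 and 8.27. For each of these genes the pair lay together, far below the homologous array. The differences were −3.64 ± 0.05 for Bgn, −3.10 ± 0.07 for Tnc and −2.72 ± 0.02 for Igfbp7 (SD, n = 2), which are 12.5-fold, 8.60-fold and 6.59-fold lower.

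Other genes of the matrix followed. Lox, the lysyl oxidase that crosslinks collagen and elastin, was at 9.32 in the homologous array and at 6.79 and 6.85 in the pair, a difference of −2.50 ± 0.04. Fbln2, fibulin 2, was at 10.66 against 8.50 and 8.50 (−2.16 ± 0.00), and Timp2, an inhibitor of matrix metalloproteinases, was at 9.81 against 7.65 and 7.79 (−2.09 ± 0.10). Postn encodes the matricellular protein periostin, and its difference was −1.60 ± 0.00. Ecm1 (−1.58 ± 0.00), P4ha3 (a collagen prolyl hydroxylase subunit, −1.61 ± 0.07), Thbs1 (thrombospondin 1, −1.48 ± 0.24) and Col12a1 (−1.10 ± 0.01) lay in the same direction, and so did Timp3 (−1.02 ± 0.05).

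A second set of lower genes encodes cell surface proteins and signals. Cdh11, a cadherin of mesenchymal cells, was at 9.47 in the homologous array and at 7.34 and 7.31 in the pair (−2.15 ± 0.02). Osmr, the oncostatin M receptor, was at 8.60 against 6.37 and 6.70 (−2.06 ± 0.24), while the LIF receptor gene Lifr (0.09 ± 0.05) and their shared subunit Il6st (−0.23 ± 0.10) were within 2-fold. Pdgfrb, the PDGF receptor beta, was at 8.87 against 7.08 and 7.18 (−1.74 ± 0.07), and Cav1, the coat protein of caveolae, at 9.43 against 7.41 and 7.37 (−2.04 ± 0.03).

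Among ligands, Inhba, the activin A subunit, was at 9.24 in the homologous array and at 7.49 and 7.56 in the pair (−1.71 ± 0.05). The chemokine genes Ccl7 (−1.66 ± 0.05) and Ccl2 (−1.43 ± 0.22) were lower too, at 9.54 and 9.29 in the homologous array. Tgfb3, a TGF-beta ligand, had a difference of −1.10 ± 0.07, and Grem1, an extracellular BMP antagonist, had a difference of −1.36 ± 0.17. The BMP-responsive inhibitor genes lay on the other side without passing 2-fold, with Id1 at 0.90 ± 0.14 and Id2 at 0.75 ± 0.04. In the list of TGF-beta and BMP genes, 2 of 26 were more than 2-fold lower and 0 higher, and the median was −0.04 ± 0.05. In the nodal and activin list Inhba was 1 of 14 genes, and the median was −0.05 ± 0.03.

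Of transcription factors, Snai2 (Slug), known from epithelial-mesenchymal transition, was at 9.19 in the homologous array and at 7.22 and 7.01 in the pair (−2.08 ± 0.15). Prrx1, a homeobox factor of limb and craniofacial mesenchyme, was at 8.83 against 6.95 and 6.64 (−2.03 ± 0.22). Hoxc8 (−1.11 ± 0.07) was the 1 of 37 Hox genes past 2-fold. The lipid carrier gene Fabp7 (BLBP), used as a marker of radial glia, had a difference of −1.33 ± 0.09 and was 1 of 15 genes of the neural progenitor list, whose median was −0.19 ± 0.03, and −0.12 in batch 2 alone.

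Further lower genes are named here after their values were seen. Tm4sf1, a tetraspanin-like surface protein and 1 of the 15 largest negative differences, was at 9.43 in the homologous array and at 7.30 and 7.49 in the pair (−2.03 ± 0.14). Cd44, the hyaluronan receptor (−1.22 ± 0.09), Ddr2, a collagen receptor kinase (−1.06 ± 0.04), Axl (−1.20 ± 0.12) and the adhesion molecule Vcam1 (−1.11 ± 0.07) were lower as well. Of 18 integrins and matrix receptors 2 were more than 2-fold lower, Cd44 and Ddr2, with a list median of −0.07 ± 0.03, and Itga3 was at the other end with 0.64. Among YAP and serum response targets 3 of 16 were lower, Acta2, Thbs1 and Axl, with a median of −0.17 ± 0.07 (−0.07 in batch 1 alone), while the classical targets Ccn1 and Ccn2 were at 0.28 and 0.03. The 2 batches of Gzme, a granzyme, lay apart at 5.19 and 6.09 against 7.18 in the homologous array (−1.54 ± 0.64). The other lower genes ranged from −1.74 (Flrt2) to −1.01, among them Aspn (asporin), S100a6, Anxa1, Nfix and Ebf1.

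The fibroblast list was uneven. Of 29 measured members, 8 were more than 2-fold lower and 0 higher: Bgn, Tnc, Lox, Fbln2, Prrx1, Pdgfrb, Postn and Thy1. The median difference of the list was −0.41 ± 0.02 (SD of the medians, n = 2), against 0.04 over all genes. In 22 of 29 members both co-injection arrays were below the homologous array, as in 28% of all genes. That share was 40.5% among the genes above 7.49 in mean and 10.6% among dim ones. Other defining fibroblast genes were much nearer to the homologous array. The collagen I genes Col1a1 (9.27 against 8.85 and 8.92) and Col1a2 (8.54 against 8.20 and 8.14) had differences of −0.39 ± 0.05 and −0.37 ± 0.04. Col3a1 (0.03 ± 0.00), Twist1 (0.00 ± 0.00) and Col5a1 (0.02 ± 0.02) were at the level of the homologous array, and Sparc, which encodes a matrix protein, was at 0.13 ± 0.10. Of 44 collagen genes 1 was more than 2-fold lower, Col12a1, and their median was 0.12.

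The contractile list showed the same contrast between 1 gene and the rest. Acta2, smooth muscle actin, was at 11.55 in the homologous array and at 9.53 and 9.51 in the pair, a difference of −2.03 ± 0.02. The other genes of the list were within 2-fold, among them Tagln (−0.18 ± 0.18), Cnn1 (−0.21 ± 0.17) and Myh11 (0.07 ± 0.00). The median of the 12 genes was −0.22 ± 0.08. The whole fibroblast list averaged 8.71 in the homologous array and 7.86 in each co-injection array, and the contractile list averaged 9.08, 8.78 and 8.73. The cultures stood on fibroblast feeders and the co-injected cells were fibroblasts, and the part of either in these values was not tested.

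**Figure D2:**
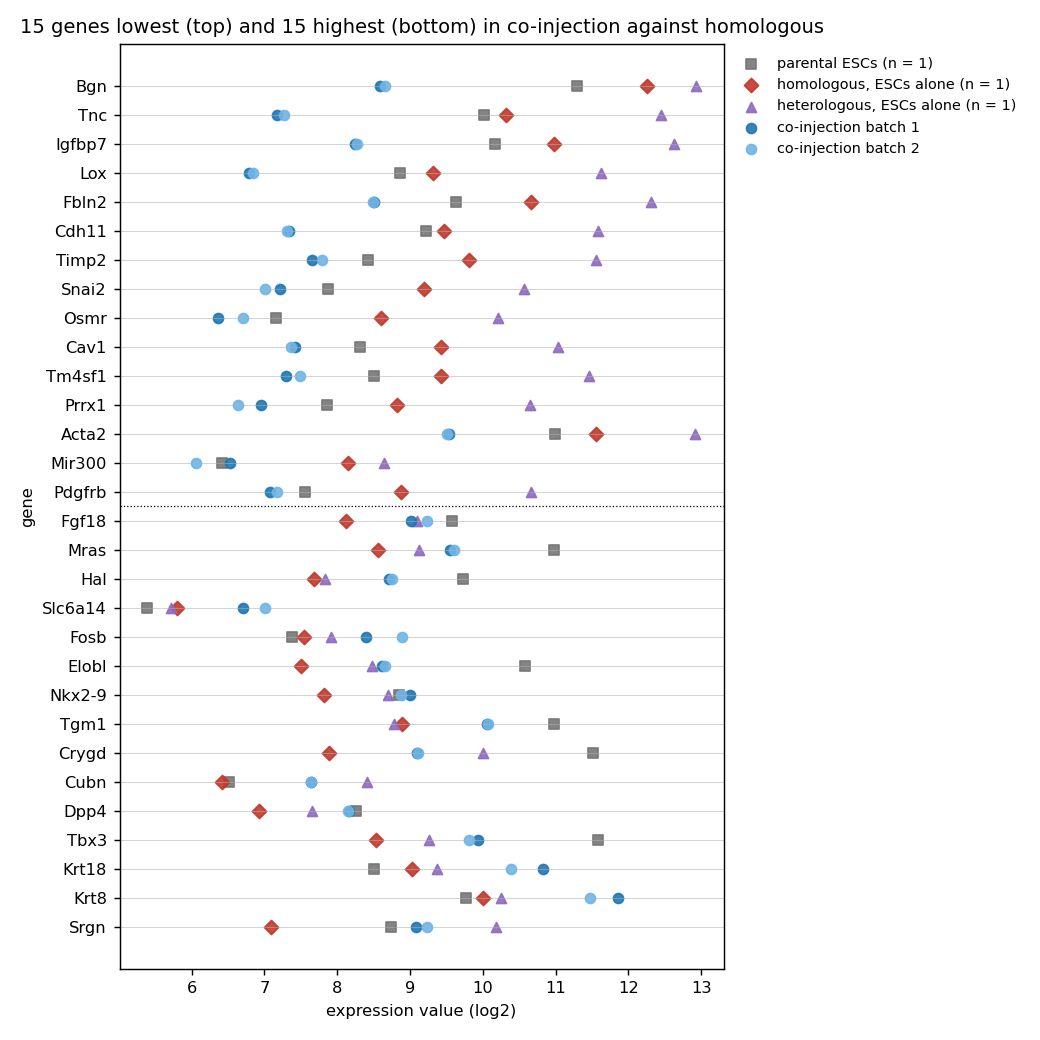
Log2 expression values (horizontal axis) of the 15 genes with the largest negative and the 15 with the largest positive differences (vertical axis, split by the dotted line) in each of the 5 arrays, 1 symbol per array. Among the lower genes the homologous value lies above both co-injection values and the heterologous value lies highest, as for Lox at 11.62.

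The arrays outside the comparison gave a second reading of the same genes. In the heterologous array 68 of the 70 lower genes were more than 2-fold above parental ESCs (97.1%), against 3.98% of all genes, and 0 were more than 2-fold below. The median of heterologous minus parental over the 70 genes was 2.44, and −0.04 over all genes. Neither of these arrays enters the difference between co-injection and homologous cells, although the probe set of a gene was chosen on all 5 arrays. For Lox the values were 8.86 in parental ESCs and 11.62 in the heterologous array, and for Postn they were 7.02 and 10.31. Of the 15 genes higher after co-injection, 2 were more than 2-fold above parental ESCs in the heterologous array and 6 more than 2-fold below, the latter against 1.95% of all genes.

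Parental ESCs took a middle place for most of the lower genes. The parental value lay between the homologous value and the co-injection mean for 50 of the 70 (71.4%), below both for 14 and above both for 5. Of all 19938 genes it lay between for 26.0%, below both for 6758 and above both for 6411. These counts use the same homologous and co-injection arrays that chose the genes. Bgn was at 11.30 in parental ESCs, against 12.26 in the homologous array. Tnc was at 10.02 and Axl, a receptor tyrosine kinase, at 9.71, equal to its homologous value to the second decimal. For the 15 higher genes the parental value lay above both for 8, between for 3 and below both for 4. The heterologous array was above the homologous array for 13 of the 15 (86.7%), against 42.5% of all genes. The homologous array was more than 2-fold below parental ESCs for 10 of the 15, against 319 of all 19938 genes. These counts share the single homologous array with the difference that chose the genes.

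Genes higher after co-injection were led by Srgn, the proteoglycan serglycin of secretory granules, at 7.09 in the homologous array and at 9.08 and 9.23 in the pair, a difference of 2.06 ± 0.10 or 4.18-fold. The array of parental ESCs was at 8.74 for this gene. Next came the keratin pair. Krt8 was at 10.00 in the homologous array, 11.86 in batch 1 and 11.47 in batch 2, and Krt18 was at 9.02, 10.82 and 10.38. For both genes batch 1 exceeded batch 2, and both batches exceeded every other array of the study. The differences were 1.66 ± 0.27 for Krt8 and 1.58 ± 0.31 for Krt18 (SD, n = 2). The genes are neighbours on chromosome 15 in the GRCm38.p6 annotation, Krt8 at chr15:101996711-102004342 and Krt18 at chr15:102028216-102032026, with 23873 bases between them.

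The other simple epithelial keratins lay in the same direction within 2-fold. Krt19 was at 8.14 in the homologous array and at 9.07 and 9.04 in the pair (0.92 ± 0.02), and Krt7 was at 7.93 against 8.63 and 8.52 (0.64 ± 0.07). The junction genes of epithelia did not follow. Cdh1, E-cadherin, was at 12.42 in the homologous array and at 12.49 and 12.43 in the pair, and Epcam was at 10.63 against 10.54 and 10.54. Of 19 epithelial genes 2 were more than 2-fold higher, the keratin pair, and the median was 0.01 ± 0.06. Of 48 keratin genes, the same pair passed 2-fold and the median was 0.16.

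Trophectoderm genes had the highest median of the lists with several members. It was 0.44 ± 0.05 over 16 genes, with 0.48 in batch 1 and 0.40 in batch 2, and both co-injection arrays were above the homologous array for 12 of the 16, as for 48.0% of all genes. Only Krt8 and Krt18 passed 2-fold. Plac1, a placental gene, had a difference of 0.74 ± 0.19 and Gata3, a transcription factor of the trophectoderm lineage, of 0.70 ± 0.01, with 7.47 in the homologous array against 8.18 and 8.17. Hand1 (0.66 ± 0.01), Tfap2a (0.44 ± 0.04) and Cdx2 (0.43 ± 0.07), which specifies the trophectoderm, were higher by less. Id2 (0.75 ± 0.04) and Krt7 (0.64 ± 0.07), named above among other genes, are members of this list as well. The epithelial list also holds Krt7, Krt8 and Krt18. Eomes (−0.03 ± 0.04), Elf5 (0.07 ± 0.02) and Tfap2c (−0.00 ± 0.14) were at the level of the homologous array. The lowest member was Fgfr2, at 9.46 in the homologous array against 9.09 and 9.26 (−0.29 ± 0.12). Parental ESCs lay above both batches for Gata3 (9.33) and Tfap2a (7.82), and below both for Plac1 (7.12) and Hand1 (8.14). The placental markers Tpbpa (4.59 against 4.77 and 4.92) and Elf5 (6.52 against 6.57 and 6.60) were dim in all 3 arrays.

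Among naive pluripotency genes, Tbx3, a T-box factor of the self-renewal network, was at 8.54 in the homologous array and at 9.93 and 9.81 in the pair, a difference of 1.33 ± 0.09. Nr5a2, a nuclear receptor that can bind the Pou5f1 promoter, came next with 9.33 against 10.28 and 10.28 (0.95 ± 0.00). Both genes were higher in parental ESCs, at 11.58 and 10.58. Klf2 (0.37 ± 0.12), Klf4 (0.31 ± 0.05), Esrrb (0.07 ± 0.14) and Zfp42 (Rex-1, 0.13 ± 0.16) differed by less, and the lowest members were Fbxo15 (−0.39 ± 0.11) and Manba (−0.27 ± 0.14). Over 17 genes 1 was more than 2-fold higher and the median was 0.13 ± 0.14, so the list as a whole lay within the spread between the batches. The primed epiblast list had a median of −0.11 ± 0.10, which was −0.00 in batch 1 alone and −0.14 in batch 2, with 1 of its 14 genes past 2-fold, Krt18, which the trophectoderm list holds as well. Foxd3 of that list was at 0.82 ± 0.23.

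The remaining genes past 2-fold on this side have no common list. Dpp4, a surface peptidase, was at 6.93 in the homologous array and at 8.16 and 8.15 in the pair (1.23 ± 0.00). Cubn, the endocytic receptor cubilin of visceral endoderm and kidney, was at 6.42 against 7.64 and 7.64 (1.22 ± 0.00) and was the 1 of 23 endoderm genes past 2-fold. Tgm1, a transglutaminase of the epidermis, had a difference of 1.18 ± 0.01, and Crygd, a lens crystallin, of 1.22 ± 0.01. In the heterologous array Cubn was at 8.41 and Crygd at 10.01. With Srgn they were the 3 of the 15 for which that array lay above the co-injection mean. Fosb, an immediate early gene, was at 7.54 against 8.40 and 8.90 (1.11 ± 0.35), with the related Fos at 0.73 ± 0.19. Hal (histidine ammonia-lyase, 1.06 ± 0.02), Slc6a14 (an amino acid transporter, 1.06 ± 0.22), Nkx2-9 (a homeobox factor, 1.12 ± 0.09), Elobl (1.12 ± 0.03), Mras (a Ras-related GTPase, 1.01 ± 0.04) and the growth factor gene Fgf18 completed the 15. A second probe set of Mras was at 0.62.

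**Figure D3:**
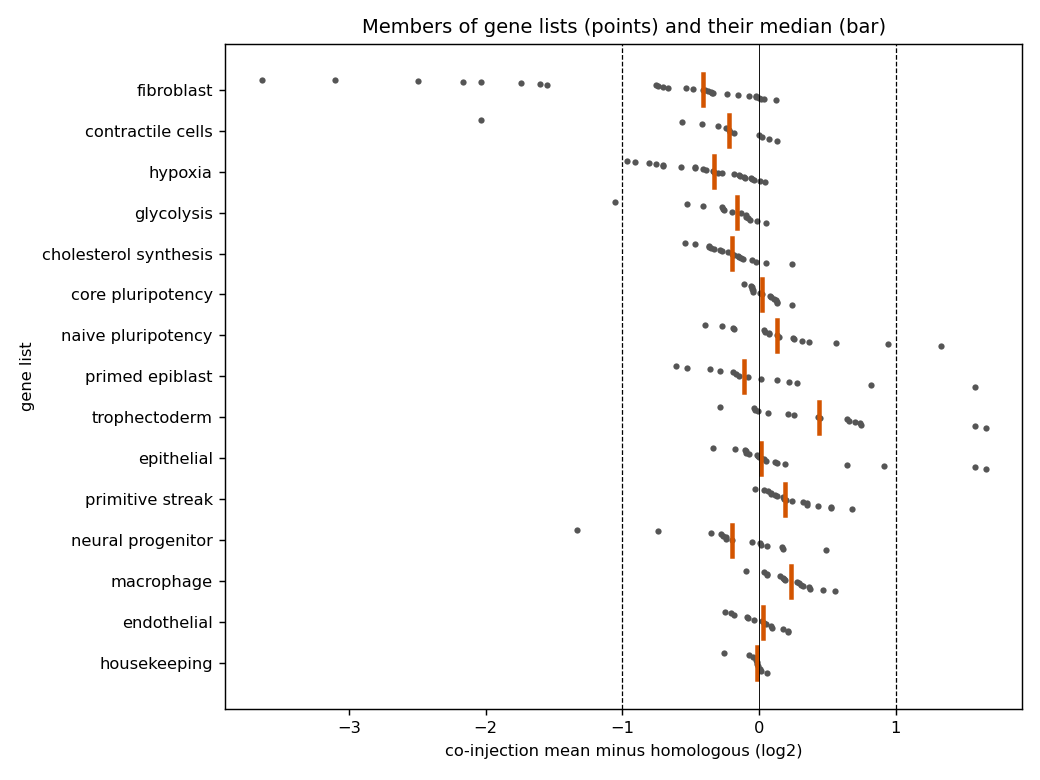
Co-injection mean minus homologous array (horizontal axis, log2) for the members of 15 gene lists (vertical axis), 1 point per gene, with bars at the list medians and dashed lines at 2-fold. Fibroblast genes spread from −3.64 to 0.13, and trophectoderm genes have the median farthest to the right, 0.44.

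Genes that respond to low oxygen were mostly lower after co-injection, each by less than 2-fold. When oxygen is short, the transcription factor HIF escapes hydroxylation and binds the core motif of hypoxia response elements, and it raises glycolytic enzymes, mitophagy receptors and its own hydroxylases. Egln3, such a hydroxylase, was at 12.12 in the homologous array and at 11.14 and 11.16 in the pair (−0.97 ± 0.01). Bnip3, a mitophagy receptor, was at 11.84 against 10.91 and 10.95 (−0.91 ± 0.03). Ddit4, an inhibitor of mTORC1, was at 10.82 against 10.10 and 9.94 (−0.81 ± 0.12), and Adm, the vasodilator peptide adrenomedullin, was at 7.76 against 7.05 and 6.96 (−0.76 ± 0.06). In all of these the homologous array was highest of the 3.

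Of 25 measured hypoxia genes 0 passed 2-fold in either direction, but 23 had a negative difference, against 49.6% of the genes above 7.49 in mean and 35.9% of all genes. The median was −0.33 ± 0.06 (SD of the medians, n = 2). The 2 members above 0 were Higd1a (0.04 ± 0.08) and Car9 (0.01 ± 0.01), both dim, and the glucose transporter gene Slc2a1 (−0.03 ± 0.02) and Vegfa (−0.11 ± 0.12) were near the homologous level. Glycolytic genes lay lower by less, with a median of −0.16 ± 0.03 over 14 genes and 13 below 0. The 1 past 2-fold was Eno2, neuron-specific enolase, at 9.46 in the homologous array against 8.29 and 8.52 (−1.05 ± 0.16). Aldoa (−0.13 ± 0.01), Ldha (−0.08 ± 0.02) and Hk2 (0.05 ± 0.07) were close to it. Parental ESCs were below the homologous array for all these glycolytic genes but Hk2, and the heterologous array for all but Pfkfb3. Parental ESCs were also below the homologous array in the hypoxia list, with a median of −0.64, and so was the heterologous array, with −0.35. These medians share the single homologous array with the difference above. The fibroblast list moved in the same direction, and its part in these values was not tested.

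Promoter sequence was read for the hypoxia genes because HIF binds a short motif. The letters ACGTG and GCGTG were searched on both strands in the 250 bases before each RefSeq start, and matches may overlap. They were in 25 of 31 promoters of the 21 hypoxia genes in the RefSeq table (80.6%) and in 12679 of all 32851 promoters (38.6%). Several starts of 1 gene count separately. The list is made of genes that respond to low oxygen, so its share describes the choice of the list and not these arrays. Genes that hardly differed held matches too, with 2 for Higd1a, 2 for Slc2a1 and 1 for Car9. The promoters of 3 genes with large differences are shown on the GRCm38.p6 build, each on the strand of its gene, with every match in capitals. Egln3 lies on the minus strand at chr12:54203875-54204124, Bnip3 on the minus strand at chr7:138909507-138909756 and Adm on the plus strand at chr7:110627407-110627656.
Egln3: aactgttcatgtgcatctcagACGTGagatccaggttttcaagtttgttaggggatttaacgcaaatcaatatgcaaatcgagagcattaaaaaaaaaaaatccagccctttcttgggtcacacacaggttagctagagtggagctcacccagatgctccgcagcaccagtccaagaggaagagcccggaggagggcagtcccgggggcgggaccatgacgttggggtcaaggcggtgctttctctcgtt
Bnip3: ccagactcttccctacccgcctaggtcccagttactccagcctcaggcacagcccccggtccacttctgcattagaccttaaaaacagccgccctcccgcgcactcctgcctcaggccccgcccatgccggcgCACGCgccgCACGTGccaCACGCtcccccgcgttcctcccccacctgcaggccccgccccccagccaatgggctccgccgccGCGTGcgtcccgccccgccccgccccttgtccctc
Adm: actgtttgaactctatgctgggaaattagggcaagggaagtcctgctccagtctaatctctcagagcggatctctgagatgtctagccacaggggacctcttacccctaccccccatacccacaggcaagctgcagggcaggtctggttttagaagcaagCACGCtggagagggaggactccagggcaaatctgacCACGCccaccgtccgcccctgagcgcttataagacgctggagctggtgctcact
The Bnip3 window held 5 matches, of which an overlapping pair, 1 on each strand, makes up the letters CACGTG, the Adm window 2 and the Egln3 window 1. A match describes letters in this window only.

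**Figure D4:**
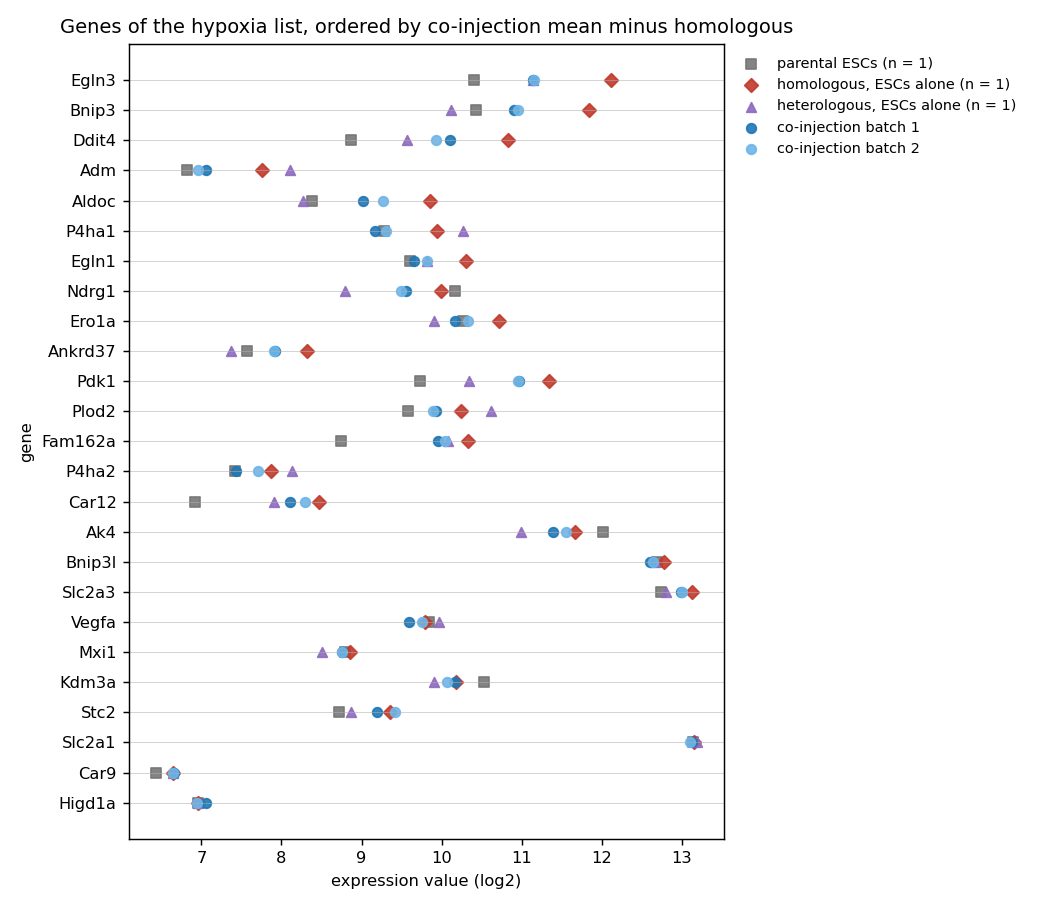
Log2 expression values (horizontal axis) of the hypoxia genes (vertical axis, ordered by difference) in each of the 5 arrays. The homologous array lies to the right of both co-injection arrays for 22 of 25 genes, as for Egln3 at 12.12 against 11.14 and 11.16.

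Cholesterol synthesis genes differed by less. Of 19 measured, 0 passed 2-fold and 17 were below 0, against 49.6% of the genes above 7.49 in mean and 35.9% of all genes, with a median of −0.20 ± 0.04. The largest differences were those of Cyp51 (−0.54 ± 0.15) and Lss, lanosterol synthase (−0.47 ± 0.03), and the other end was Ebp (0.24 ± 0.06). Parental ESCs were also below the homologous array for all of these genes but Nsdhl and Ebp. The heterologous array was below it for all but Sc5d, Mvk, Hsd17b7 and Ebp. These comparisons share the single homologous array. Housekeeping genes gave a median of −0.01 over 10 genes, and ribosomal protein genes one of −0.00 over 49.

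MicroRNA genes made up 8 of the 70 lower genes, and 7 of the 8 lie in the imprinted cluster between Dlk1 and Dio3 on chromosome 12. The 19938 genes held 40 miRNA genes of this cluster and 260 elsewhere. In the cluster the maternal chromosome expresses Meg3, Rian and a long row of miRNAs and the paternal one the protein-coding genes. A miRNA pairs with messenger RNAs through its seed, bases 2 to 8. The mature arms of the 4 with the most negative differences are given from RefSeq with the seed in capitals, because the seed groups miRNAs into families. On the plus strand of GRCm38.p6 the arms of Mir379 lie at chr12:109709065-109709085 and chr12:109709102-109709123, those of Mir300 at chr12:109724318-109724339 and chr12:109724363-109724384, those of Mir382 at chr12:109733781-109733802 and chr12:109733819-109733840, and those of Mir377 at chr12:109740515-109740536 and chr12:109740553-109740574. The arm of Mir411 shown for comparison lies at chr12:109710225-109710246.
miR-300-5p: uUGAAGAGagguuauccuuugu
miR-300-3p: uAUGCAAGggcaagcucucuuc
miR-377-5p: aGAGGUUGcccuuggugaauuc
miR-377-3p: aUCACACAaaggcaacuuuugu
miR-382-5p: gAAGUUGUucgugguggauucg
miR-382-3p: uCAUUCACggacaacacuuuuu
miR-379-5p: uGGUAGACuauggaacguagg
miR-379-3p: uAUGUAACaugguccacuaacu
miR-411-3p: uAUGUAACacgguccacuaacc
The 13 mature arms of the 7 genes carry 13 different seeds, so they are not one seed family. The seed of miR-379-3p is shared by 1 other arm of the cluster, miR-411-3p, whose gene Mir411 had a difference of −0.82. These array probe sets do not tell a precursor from its mature arms.

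Mir300 was at 8.15 in the homologous array and at 6.53 and 6.06 in the pair, a difference of −1.85 ± 0.33. Mir377 was at 10.01 against 8.69 and 8.18 (−1.57 ± 0.36), Mir382 at 9.30 against 8.19 and 7.71 (−1.35 ± 0.34) and Mir379 at 5.65 against 4.36 and 4.31 (−1.32 ± 0.03). Mir485 (−1.08 ± 0.28), Mir154 (−1.07 ± 0.28) and Mir380 (−1.05 ± 0.71) were just past 2-fold, and in batch 1 alone none of these 3 passed it, with −0.88, −0.88 and −0.55. Batch 2 lay below batch 1 for 29 of the 40 miRNA genes of the cluster and for 67 of the 260 elsewhere. Over all genes the median difference was 0.02 in batch 1 and 0.04 in batch 2.

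The lower values were concentrated in one stretch, chosen after the values were seen. From Mir379 to Mir369, 29 of 30 miRNA genes were below 0, and in these 29 both batches were below the homologous array. The median of the stretch was −0.48 ± 0.12. The exception was Mir666, at 0.18. Of the 10 miRNA genes before Mir379, 3 were below 0, 4 above and 3 at exactly 0, with a median of 0.00. The 260 miRNA genes elsewhere had a median of 0.07, 23.5% of them were below 0, and 1 was more than 2-fold lower, the X-linked Mir363 (−1.49 ± 0.14). Of these 260, 216 were dim, against 23 of the 40 in the cluster, and 16.9% of all dim genes were below 0. The 2 groups of miRNA genes therefore differ in brightness. Of the longer transcripts, Meg3 was at 12.08 in the homologous array and at 11.78 and 11.45 in the pair (−0.46 ± 0.23), and Rian had a difference of −0.16 ± 0.41. On the paternal side Dlk1 was at 0.13 ± 0.15 and Dio3 at 0.33 ± 0.05. The fibroblast list was lower in the same arrays, and its part in the cluster was not tested.

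**Figure D5:**
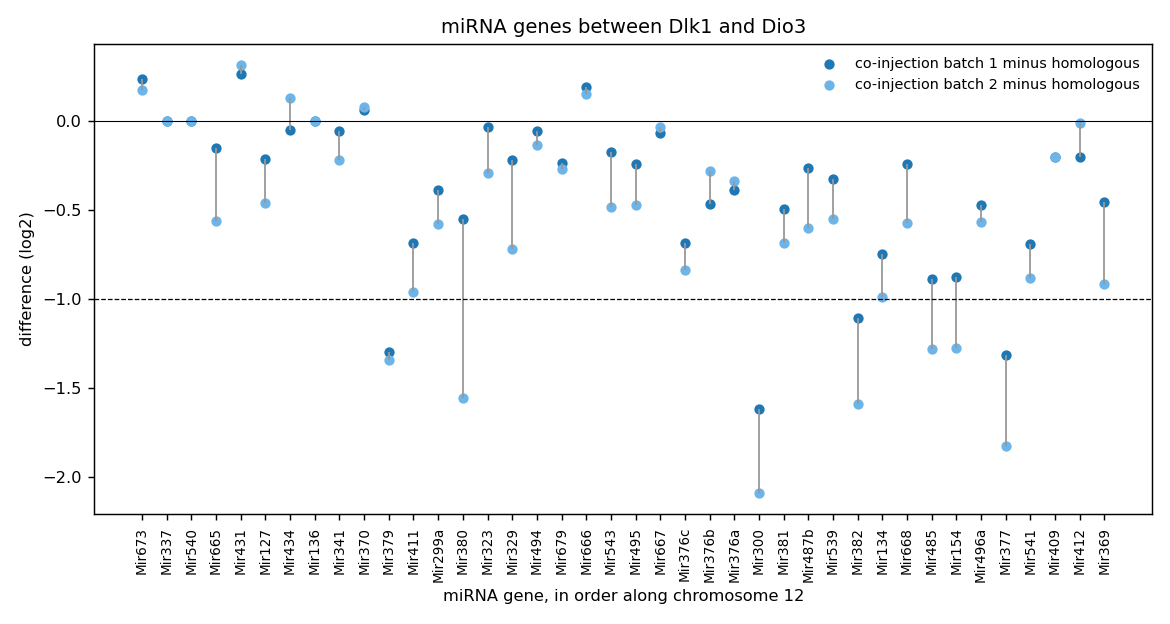
Difference of each co-injection array from the homologous array (vertical axis, log2) for the 40 miRNA genes between Dlk1 and Dio3 (horizontal axis, in chromosomal order), with a dashed line at 2-fold lower. From Mir379 rightwards 29 of 30 means lie below 0, and Mir300 is lowest at −1.85.

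Markers of other cell types that a teratoma culture could hold stayed within 2-fold. Of 16 macrophage genes 0 passed 2-fold and 15 were above 0, with a median of 0.23 ± 0.06. Above 0 lay 62.3% of all genes and 80.3% of dim genes. The median was 0.15 after cyclic loess and 0.42 without dim genes. The brightest members were Laptm5, a lysosomal protein gene of blood cells, at 9.55 in the homologous array against 9.77 and 10.08, and Cd68, at 8.42 against 8.88 and 8.89. Cd74, the MHC class II invariant chain, had the highest difference, 0.56, from 6.99 in the homologous array. Of the 16 members 14 were dim. Ptprc (CD45) was at 5.33 in the homologous array and at 5.66 and 5.62 in the pair, and Csf1r was at 6.37, 6.58 and 6.75, all below the median of the arrays. In parental ESCs Ptprc was at 5.53 and Csf1r at 6.55. The mean of the list was 6.68 in the homologous array and 6.86 and 6.96 in the pair. Endothelial genes had a median of 0.03 over 14 genes, and −0.04 after cyclic loess, with 0 past 2-fold, and the defining Cdh5 and Kdr were at 7.49 and 6.85 in the homologous array. Of the blood genes 7 were measured, 0 passed 2-fold and Alas2 was at 6.55 in the homologous array. Dim genes as a whole had a median of 0.09.

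The genes that the study followed by RT-PCR gave mixed values in this comparison. Wnt5a, which encodes a Wnt ligand, was at 7.57 in the homologous array and at 6.96 and 6.73 in the pair (−0.72 ± 0.16). Wnt8a, a ligand of the primitive streak, was at 7.36 against 8.05 and 8.03 (0.68 ± 0.01). Bmp1, a procollagen protease, had a difference of −0.30 ± 0.02. These 3 were within 2-fold, and Tgfb3 and Acta2 were past it. Wnt8a was the highest of 18 primitive streak genes, of which 17 were above 0, as were 62.3% of all genes and 80.3% of dim ones. None of the 18 passed 2-fold, and the median was 0.19 ± 0.02.

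Lists without any member past 2-fold were 26 of the 49 with measured genes, and their medians ran from −0.47 (Xist alone) to 0.23 (macrophage genes). Cell cycle genes (median −0.01 over 24), p53 targets (0.01 over 16), interferon response genes (−0.03 over 21) and DNA methylation genes (0.06 over 12) were among them. In the LIF and STAT3 list Osmr was the 1 of 15 genes past 2-fold, and the median was 0.09 ± 0.02. Of 17 chemokine and inflammation genes Ccl7 and Ccl2 were lower, and the median was 0.04 ± 0.01 with all members, −0.06 after cyclic loess (another normalization between arrays) and −0.62 without dim genes. Of 18 immediate early genes Fosb was higher, and Ier3 lay farthest in the other direction at −0.90.

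The medians of the chromosomes lay close together in this comparison. Over the 20 chromosomes with 20 or more genes above 7.49 in mean, the median difference ran from −0.04 (chromosome 13) to 0.05 (chromosome 1), and the next below chromosome 1 was chromosome 11 at 0.01. The X chromosome was at −0.03 over 359 genes. Of the genes above 7.49 in mean, 7 of 421 on chromosome 12, 7 of 513 on chromosome 3 and 8 of 996 on chromosome 11 were more than 2-fold lower. Over all 11600 such genes 60 were more than 2-fold lower. The count on chromosome 12 includes Mir377, Mir382 and Mir485 of the cluster between Dlk1 and Dio3.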

How the data were processed

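Affymetrix GeneChip Mouse Gene 1.0 ST arrays were read with GCOS and processed by the authors with RMA, which corrects the background, normalizes by quantiles and summarises probes. No version is given in the sources used here. The deposited values are log2 expression values of 35556 probe sets on 5 arrays, and they were used without further normalization. GEO's platform annotation pairs 21789 probe sets with exactly 1 symbol, and the brightest of a gene by the mean of the 5 arrays was kept, which left 19938 genes. RMA fits probe sets across arrays, and 349 genes (1.75%) hold 1 identical value in the homologous and both co-injection arrays. Chromosomes, starts and sequences come from RefSeq GRCm38.p6 by Entrez ID (19855 genes matched).

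The difference was the co-injection mean minus the homologous array, called above 2-fold as in the study's methods. The number of arrays limits the precision. Genes, lists and stretches were chosen with earlier results of these data known. Named were the 15 largest differences in each direction, list members past 2-fold or at the ends of a list, the genes the study names and defining markers; other genes were chosen after their values were seen. Older symbols were matched through RefSeq synonyms. Alternatives were other fold thresholds, dim genes left out, all probe sets, means over probe sets, cyclic loess, each co-injection array left out, and limma 3.58.1 (R 4.3.3) on all 5 arrays. Python 3.11.15, numpy 2.4.6, pandas 2.3.3 and matplotlib 3.10.9 were used.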

Additional observations from a re-analysis of the deposited data

How the results depend on the processing

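The number of genes higher after co-injection was 61 at 1.5-fold and 2 at 3-fold, and that of lower genes 232 and 21. Over all 35556 probe sets, named or not, 48 were higher and 257 lower. limma, fitted to all 5 arrays with 1 residual degree of freedom, which is the spread of the co-injection pair, called 0 genes at an adjusted p under 0.05 in either direction (smallest adjusted p 0.327), with 1579 genes higher and 1326 lower at an unadjusted p under 0.05. The median of the fibroblast list was −0.45 after cyclic loess and −0.51 without dim genes, and that of the trophectoderm list 0.37 after cyclic loess. Over the 49 lists, 36 had a median that turned sign or moved over 1.5 times under cyclic loess, means over probe sets, no dim genes or 1 co-injection array left out, and 13 of these turned sign, all with a reported median within 0.11 of 0. None of the 4 lists with a median over 0.3 in size (fibroblast, hypoxia, trophectoderm and Xist) was among the 36. A rule on ratios is met more easily by medians near 0. Xist is a single dim gene, so it has no value without dim genes, and means over probe sets left it unchanged. Without either co-injection array the count of higher genes ran from 13 to 15 and that of lower genes from 70 to 74. All 85 genes past 2-fold kept their direction under cyclic loess, under means over probe sets and with either co-injection array left out, and 84, 83, 79 (without batch 1) and 76 (without batch 2) of them were still past 2-fold. Another background correction and a slide block could not be tried from the RMA table. No paired analysis was possible because the homologous condition has 1 array.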

Other observations

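Probe sets without a single gene symbol held further differences. Of 13767 such probe sets, 33 lay over 2-fold above the homologous array and 187 over 2-fold below it in the co-injection mean. Of these, 21 higher and 162 lower ones lie in the opening 6617 lines of the value table, where no line has a symbol in the annotation used here. Xist, the transcript that coats the inactive X chromosome, was at 6.79 in the homologous array and at 6.34 and 6.29 in the co-injection arrays, a difference of −0.47 ± 0.04 (SD, n = 2).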
